A study of Mus musculus with 15 samples.

Results

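Cholesterol and fatty acids are built from acetyl-CoA by a chain of enzymes whose genes are largely read under one pair of transcription factors. The set described here holds 36 genes of this system out of 45706 gene identifiers in the count table: 18 enzymes of sterol synthesis, 5 genes of its control, 6 genes of sterol transport and export, and 7 genes of fatty acid synthesis. They were taken by name, and all 36 were among the 18423 genes with enough reads to be tested. The cells were Foxp3+ regulatory T cells (Tregs), T cells that restrain immune responses, sorted from adult C57BL/6 mice that all carried a Foxp3 reporter. Bulk RNA-seq was made from Tregs of 3 sites in mice of the line named RelB-dDC and in littermate controls. What that name stands for is not written in the labels; the reading used here is a loss of RelB, an NF-kappaB subunit, from dendritic cells, which would leave RelB in the sorted Tregs. The short form dDC is used below. The 15 libraries were 2 of dDC and 2 of control Tregs from the peritoneal cavity, 2 of dDC and 3 of control Tregs from the thymus, and 3 of dDC and 3 of control Tregs from the spleen. Nothing in the labels says whether libraries of a group came from separate animals, and p-values measure the spread between these libraries only.

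When sterol is scarce in the membrane of the endoplasmic reticulum, the escort protein SCAP carries the precursors SREBP-1 (gene Srebf1) and SREBP-2 (Srebf2) to the Golgi, where they are cut into active transcription factors. INSIG1 and INSIG2 hold SCAP back when sterol is plentiful. SREBP-2 mainly drives the sterol enzymes and SREBP-1 mainly drives fatty acid synthesis, usually together with NF-Y, which binds CCAAT boxes. Excess sterol, as oxysterol, activates the liver X receptors, which raise the exporters Abca1 and Abcg1 and also Srebf1. Activated T cells raise sterol synthesis and lower sterol export as they prepare to divide.

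The library totals lay between 15714286 and 24332044 reads, and 18471 to 21860 genes had at least 1 read. Foxp3 was at 199 to 320.0 CPM (read counts scaled to a common library size) in peritoneal, 222 to 327 CPM in thymic and 179 to 256 CPM in splenic libraries, and none of the 7 Treg and T cell markers was at 0 in any group. Markers of other cells were also read. The 9 B cell markers summed to 3366 to 5645 CPM in peritoneal, 1118 to 1637 CPM in thymic and 2601 to 3812 CPM in splenic libraries. In the comparisons averaged over genotypes, all 9 were called higher in peritoneal than in thymic and lower in thymic than in splenic Tregs, and Pax5 and Blk were among those at 0 in the thymic dDC libraries. The 8 macrophage and monocyte markers summed to 61.0 to 1674 CPM, 3.27 to 29.8 CPM and 102 to 371 CPM at these sites, with the highest sum in peritoneal control library 2 and with Cd14 and C1qa at 0 in every thymic library. The 7 erythroid markers summed to at least 2396 CPM in each splenic library and to at most 398 CPM elsewhere. The 7 developing thymocyte markers summed to 9.05 to 50.9 CPM in peritoneal, 44.9 to 94.8 CPM in thymic and 11.4 to 75.9 CPM in splenic libraries, with Rag1 and Dntt at 0 in every peritoneal one. The 4 mast cell markers summed to 1.61 to 8.14 CPM, 45.2 to 78.4 CPM and 0.801 to 7.57 CPM at these sites, and in the thymus Mcpt4 and Fcer1a were at 0 and Kit was most of the sum. The 12 proliferation markers summed to 270.2 to 359 CPM, 344 to 446 CPM and 366 to 708 CPM. In bulk RNA, fewer cells of a type and less RNA per cell cannot be told apart. The part of these cells and of proliferation in the differences between sites given below was not tested.

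Promoters are shown because the members of this set are known for shared control through them. A promoter from RefSeq (build GRCm38.p6, which is mm10) was used for 28 of the 36 members. The other 8, Abcg1, Scd2, Fdft1, Sqle, Fdps, Fads1, Stard4 and Npc1, were not searched. The 250 bases before each start were searched on both strands for the SREBP site TCACNCCAC and for CCAAT, the NF-Y box, which reads ATTGG on the other strand. The 28 members had 36 windows, since some genes have several starts. CCAAT stood in 21 of the 36 windows (58.3%), beside 33.8% of all promoter windows of this length. By member it stood in 20 of 28, among them 9 of 9 enzymes of the steps from squalene to cholesterol. TCACNCCAC stood in 1 of the 36 windows (2.78%), that of Hmgcs1, and in 1.05% of all windows. The windows of Msmo1 (chr8:64733579-64733828, minus strand), Ebp (chrX:8193513-8193762, minus strand), Srebf2 (chr15:82147019-82147268, plus strand), Srebf1 (chr11:60222582-60222831, minus strand; 1 of 3 in RefSeq) and Hmgcs1 (chr13:119690101-119690350, plus strand) are printed 5′ to 3′ along the gene, with both kinds of match in capitals. The count table's own annotation has Msmo1 begin at 64733792, inside the window printed. Hmgcs1 was added after its values were seen, as the member with TCACNCCAC.
Msmo1: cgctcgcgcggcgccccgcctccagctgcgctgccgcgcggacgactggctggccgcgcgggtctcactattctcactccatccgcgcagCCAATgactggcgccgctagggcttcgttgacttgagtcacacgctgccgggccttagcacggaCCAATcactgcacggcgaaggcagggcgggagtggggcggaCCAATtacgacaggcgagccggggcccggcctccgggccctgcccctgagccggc
Ebp: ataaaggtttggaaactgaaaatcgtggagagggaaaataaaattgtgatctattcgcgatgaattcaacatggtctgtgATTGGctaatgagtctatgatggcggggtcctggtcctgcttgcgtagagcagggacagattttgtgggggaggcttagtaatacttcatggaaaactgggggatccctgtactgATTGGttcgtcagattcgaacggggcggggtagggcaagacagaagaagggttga
Srebf2: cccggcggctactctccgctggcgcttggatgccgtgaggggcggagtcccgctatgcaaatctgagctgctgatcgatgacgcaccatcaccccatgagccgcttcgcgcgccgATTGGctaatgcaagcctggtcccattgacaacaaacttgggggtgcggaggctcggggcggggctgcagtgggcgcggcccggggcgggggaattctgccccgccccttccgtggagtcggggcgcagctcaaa
Srebf1: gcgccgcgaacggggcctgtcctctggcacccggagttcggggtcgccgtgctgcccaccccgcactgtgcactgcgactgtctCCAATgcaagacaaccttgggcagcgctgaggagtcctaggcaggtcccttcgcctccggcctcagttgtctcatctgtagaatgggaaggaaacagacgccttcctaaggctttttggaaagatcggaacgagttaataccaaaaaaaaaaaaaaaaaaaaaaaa
Hmgcs1: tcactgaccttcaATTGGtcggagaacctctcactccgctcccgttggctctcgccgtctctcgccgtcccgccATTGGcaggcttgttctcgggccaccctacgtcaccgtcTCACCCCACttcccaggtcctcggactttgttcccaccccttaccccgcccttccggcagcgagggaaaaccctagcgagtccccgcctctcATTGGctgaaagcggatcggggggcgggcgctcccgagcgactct

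In these windows Msmo1 had 3 CCAAT boxes, which began 160, 96 and 55 bases before the RefSeq start. By the count table's own annotation these boxes lie inside the gene, not before it. Ebp had 2, at 170 and 55 bases. Srebf2 and Srebf1 had 1 each, at 135 and 166 bases. Hmgcs1 had 3, at 237, 176 and 45 bases, and its TCACCCCAC lay between them at 137 bases. None of the matches overlapped another. A match describes letters in a window and not a bound site.

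Set per length of transcript, the members spanned a wide range of levels. Abcg1 led with a mean of 159 RPKM (reads scaled to exon length and library size) over the 15 libraries. It was followed by Acly, whose enzyme makes cytosolic acetyl-CoA (56.9 RPKM), and by the late sterol enzymes Ebp (50.9 RPKM) and Sc5d (39.4 RPKM). Nr1h2, the gene of the liver X receptor LXR-beta, came next (24.3 RPKM). At the other end stood Acaca, the carboxylase that commits acetyl-CoA to fatty acids (0.573 RPKM), and Fads2, a desaturase of polyunsaturated fatty acids, with 36 reads in all and 0 in 12 of 15 libraries. The transcript of Acaca matched that of Gm5182, which is absent from the count table, at 99.2% of 6118 aligned bases. Reads that fit both could have been left uncounted, so the level of Acaca is uncertain. Within groups, the coefficient of variation over libraries was 13.9% for Abcg1, 14.8% for Acly, 20.1% for Ebp and 53.1% for Abca1.

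**Figure D1:**
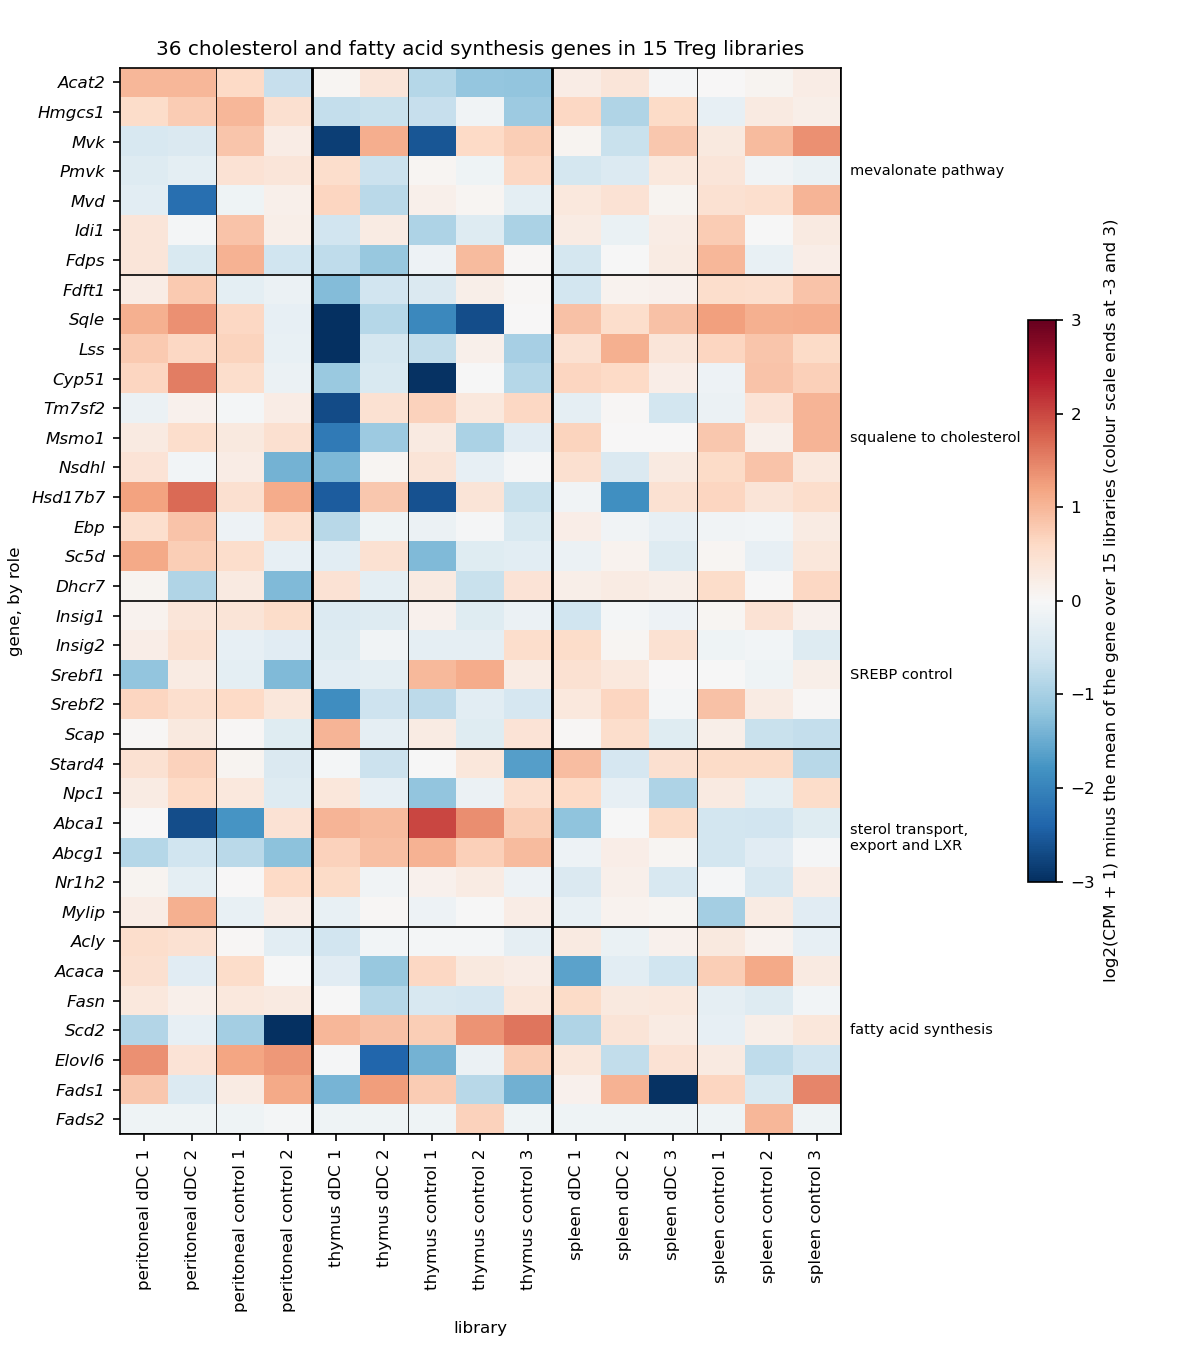
Level of each of the 36 genes (down, by role) in each of the 15 libraries (across, by site and genotype), as log2(CPM + 1) minus the gene's mean over all libraries; colours end at 3 in either direction. Abcg1, Scd2 and Abca1 are above their means in thymic libraries, and most enzymes from squalene to cholesterol are below theirs there.

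Members passed edgeR's test between sites, whereas none did between dDC and control Tregs. Abcg1, which moves cholesterol out of cells, and Scd2, a stearoyl-CoA desaturase that makes monounsaturated fatty acids, were lower in peritoneal than in thymic Tregs. Srebf2 and 4 enzymes of the sterol chain, Hmgcs1, Acat2, Msmo1 and Ebp, were higher there. These 7 members passed the test (adjusted p under 0.05, edgeR's quasi-likelihood test, adjusted over all 18423 genes) when the difference between sites was averaged over dDC and control mice. The members' 5 higher and 2 lower of 36 stood beside 3.03% higher and 2.58% lower of all genes (5.61% together). The median log2 difference was 0.43 over the members and -0.00 over all genes tested. This averaged comparison was added after the data were seen, while those within each genotype were planned.

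Abcg1 had 316 and 380.4 CPM in peritoneal dDC and 326 and 245 CPM in peritoneal control libraries. Thymic Tregs had 926 and 1080.4 CPM in dDC and 1186, 946 and 1107 CPM in control libraries. Splenic Tregs had 515, 656 and 602 CPM in dDC and 392, 454 and 563 CPM in control libraries. The 3 sites did not overlap: each peritoneal library was below each splenic one, and each splenic one was below each thymic one. Averaged over genotypes, Abcg1 fell by 1.72 on the log2 scale (SE 0.14, adjusted p = 2.74e-05, edgeR) in peritoneal against thymic Tregs and by 0.74 (SE 0.13, adjusted p = 0.00956, edgeR) in peritoneal against splenic Tregs. It rose by 0.98 (SE 0.12, adjusted p = 0.00173, edgeR) in thymic against splenic Tregs. Without peritoneal dDC library 1 the peritoneal against splenic difference reached an adjusted p of 0.0541, and it was also lost without peritoneal control library 2. The peritoneal against thymic and the thymic against splenic differences were called whichever of the 15 libraries was left out.

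Abca1, the exporter that loads cholesterol onto apolipoprotein A-I, was low and varied between libraries. It had 18.1 and 2.00 CPM in peritoneal dDC, 4.60 and 24.8 CPM in peritoneal control, 37.7 and 35.7 CPM in thymic dDC, and 75.0, 48.8 and 30.9 CPM in thymic control libraries. Splenic libraries had 7.21, 17.9 and 27.1 CPM in dDC and 12.0, 11.8 and 13.8 CPM in controls. Each thymic library was above each peritoneal and each splenic one, but the averaged log2 differences did not pass the test: -1.84 (SE 0.65, adjusted p = 0.144, edgeR) for peritoneal against thymic and 1.56 (SE 0.56, adjusted p = 0.256, edgeR) for thymic against splenic Tregs. The first was called by DESeq2 (adjusted p = 0.0229), by limma-voom (0.0430) and by edgeR without peritoneal dDC library 1 (0.0358). Nr1h2, Mylip, whose product degrades lipoprotein receptors, Npc1, which moves cholesterol out of lysosomes, and Stard4, a sterol carrier, were not called in any comparison by edgeR or DESeq2. The 6 transport and export genes summed to 469 to 600.5 CPM in peritoneal, 1167 to 1416 CPM in thymic and 565 to 838 CPM in splenic libraries, and Abcg1 was the largest part of each sum.

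**Figure D2:**
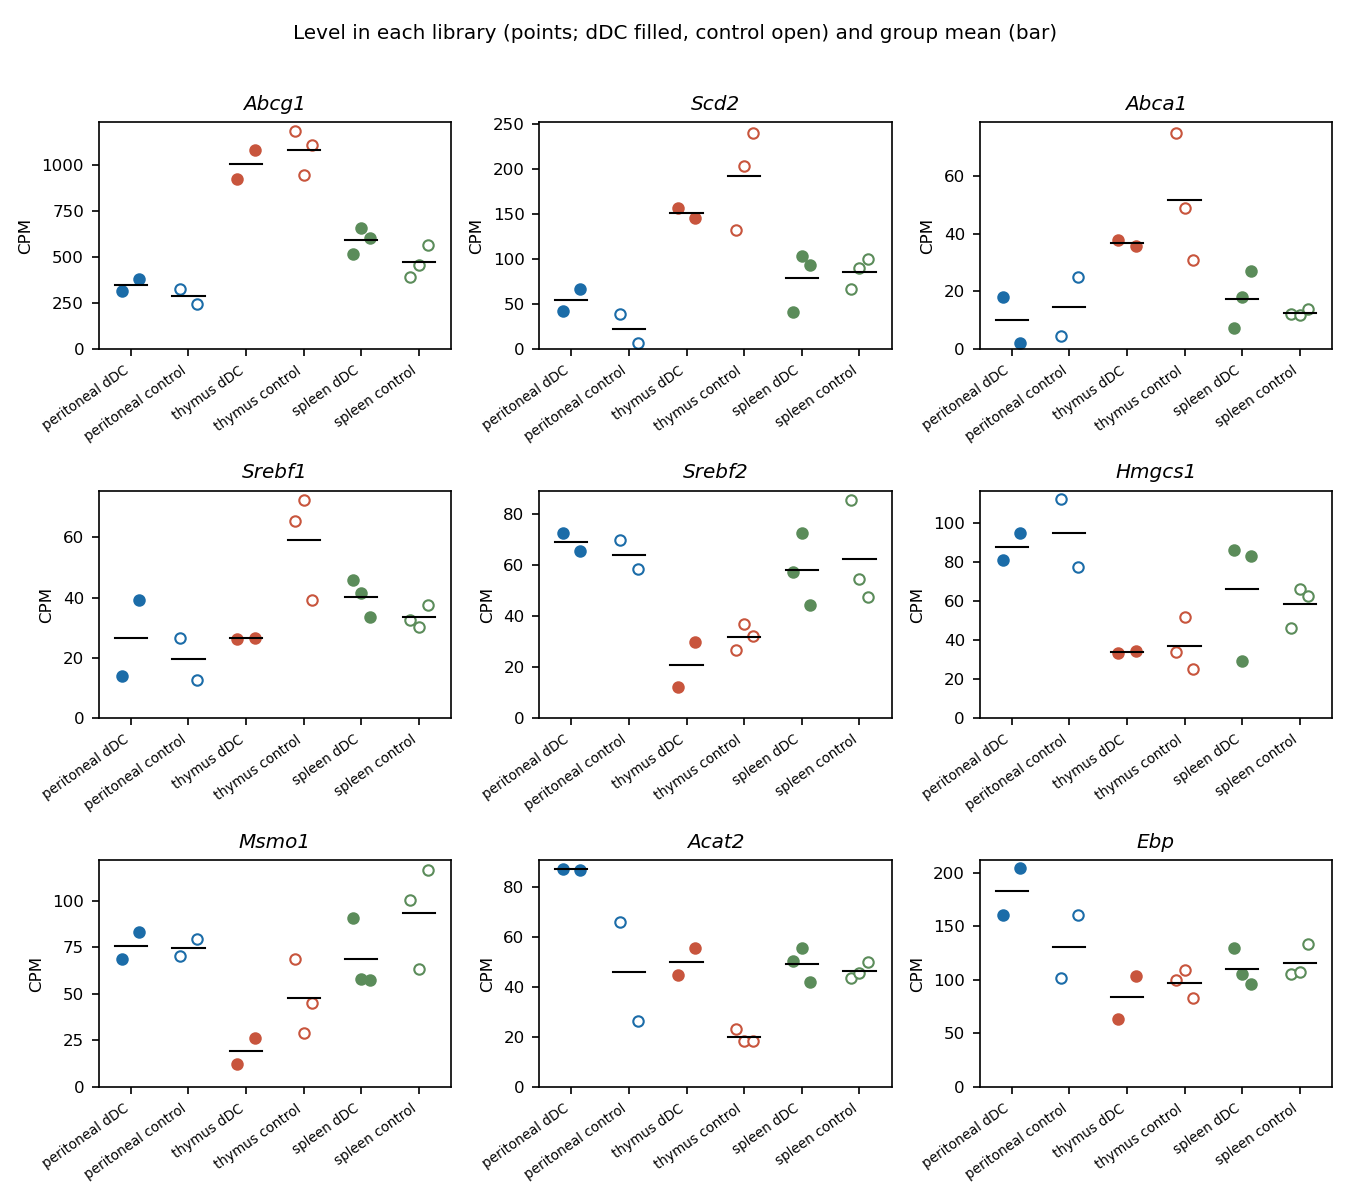
CPM of 9 members in every library; points are libraries (dDC filled, control open), bars are group means, and the vertical scale differs by gene and starts at 0. For Abcg1 the 5 thymic libraries (926 to 1186 CPM) lie above all splenic ones (392 to 656 CPM) and these above the 4 peritoneal ones (245 to 380.4 CPM).

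Srebf2 had 72.4 and 65.4 CPM in peritoneal dDC, 69.9 and 58.5 CPM in peritoneal control, 11.9 and 29.6 CPM in thymic dDC, and 26.5, 36.9 and 32.1 CPM in thymic control libraries. Splenic libraries had 57.4, 72.7 and 44.1 CPM in dDC and 85.4, 54.5 and 47.5 CPM in controls. Each thymic library was below each library of the other sites, and peritoneal and splenic libraries overlapped. The averaged log2 difference was 1.37 (SE 0.27, adjusted p = 0.0120, edgeR) for peritoneal against thymic Tregs and was called whichever library was left out (adjusted p up to 0.0447). For thymic against splenic Tregs it was -1.23 (SE 0.26, adjusted p = 0.0392, edgeR), a call that remained in 3 of 15 fits with a library left out (adjusted p up to 0.147, without thymic dDC library 1) and was kept without splenic dDC library 3, splenic control library 3 or thymic dDC library 2.

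The other 4 control genes were not called in any comparison by edgeR. DESeq2 called Srebf1 lower in peritoneal than in thymic control Tregs (log2 difference -1.59, adjusted p = 0.00621) and Insig1 higher in the averaged peritoneal against thymic comparison (0.63, adjusted p = 0.00603). Srebf1 had 14.0 and 39.3 CPM in peritoneal dDC, 26.6 and 12.6 CPM in peritoneal control, 26.4 and 26.6 CPM in thymic dDC, and 65.5, 72.5 and 39.4 CPM in thymic control libraries. Splenic libraries had 46.0, 41.6 and 33.4 CPM in dDC and 32.5, 30.1 and 37.7 CPM in controls. The thymic control libraries were above the thymic dDC ones, and by site Srebf1 had its lowest mean in the peritoneal cavity while Srebf2 had it in the thymus. Insig1 had 33.7 and 40.3 CPM in peritoneal dDC, 41.1 and 46.1 CPM in peritoneal control, 23.4 and 23.6 CPM in thymic dDC, and 34.2, 24.2 and 27.5 CPM in thymic control libraries, with 20.1, 30.2 and 27.9 CPM in splenic dDC and 32.5, 42.4 and 34.2 CPM in splenic control libraries. Its averaged peritoneal against thymic difference was 0.63 on the log2 scale (SE 0.18, adjusted p = 0.0741, edgeR), and the sites overlapped. Insig2 lay between 34.0 and 65.9 CPM and Scap between 14.9 and 52.2 CPM over the 15 libraries.

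Hmgcs1 makes HMG-CoA, the substrate of the rate-limiting step of the mevalonate pathway. It had 80.9 and 95.1 CPM in peritoneal dDC, 112 and 77.7 CPM in peritoneal control, 33.6 and 34.3 CPM in thymic dDC, and 33.9, 51.6 and 25.3 CPM in thymic control libraries. Splenic libraries had 86.0, 29.1 and 82.9 CPM in dDC and 46.2, 66.4 and 62.6 CPM in controls. The peritoneal and thymic libraries did not overlap, and the averaged log2 difference was 1.37 (SE 0.31, adjusted p = 0.0233, edgeR). The call remained in 10 of 15 fits with a library left out and was lost without thymic dDC library 1 (adjusted p = 0.0970) or 2, peritoneal dDC library 1 or 2, or peritoneal control library 1.

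Acat2, a cytosolic thiolase that feeds HMG-CoA synthesis, had 87.4 and 87.0 CPM in peritoneal dDC, 66.0 and 26.3 CPM in peritoneal control, 44.6 and 55.6 CPM in thymic dDC, and 23.2, 18.5 and 18.5 CPM in thymic control libraries. Splenic libraries had 50.4, 55.6 and 42.0 CPM in dDC and 43.4, 45.4 and 49.9 CPM in controls. Peritoneal and thymic libraries overlapped over both genotypes but not within either. The averaged log2 difference was 1.0 (SE 0.23, adjusted p = 0.0249, edgeR), called in 8 of 15 fits with a library left out. It was lost without either thymic dDC library (0.121 without the first), thymic control library 2 or 3, either peritoneal dDC library or peritoneal control library 1. The transcript of Acat3 matched that of Acat2 at 98.3% of 1441 aligned bases, and the authors' counting could have split reads between them. Acat3 held 1133 reads against 13736 for Acat2, and its averaged peritoneal against thymic log2 difference was 1.09 (adjusted p = 0.236, edgeR).

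Msmo1, which removes methyl groups from the sterol ring, had 68.8 and 82.9 CPM in peritoneal dDC, 70.2 and 79.3 CPM in peritoneal control, 12.4 and 26.4 CPM in thymic dDC, and 68.6, 29.2 and 44.8 CPM in thymic control libraries. Splenic libraries had 90.5, 57.8 and 57.3 CPM in dDC and 100.4, 63.1 and 117 CPM in controls. Each peritoneal library was above each thymic one, with an averaged log2 difference of 1.31 (SE 0.30, adjusted p = 0.0244, edgeR). Thymic against splenic Tregs differed by -1.40 (SE 0.28, adjusted p = 0.0328, edgeR), although thymic control library 1 lay within the splenic range. The first call remained in 10 of 15 fits with a library left out, being lost without thymic dDC library 1 (adjusted p = 0.112), thymic control library 3, either peritoneal dDC library or peritoneal control library 2. The second remained in 5 of 15, those without splenic control library 2, thymic dDC library 2, thymic control library 1 or either peritoneal control library, and was at 0.180 without thymic dDC library 1.

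Ebp, the isomerase that shifts a double bond within the sterol rings, had 161 and 205 CPM in peritoneal dDC, 102 and 160.5 CPM in peritoneal control, 63.1 and 104 CPM in thymic dDC, and 99.5, 109.7 and 82.7 CPM in thymic control libraries. Splenic libraries had 129, 105 and 95.9 CPM in dDC and 106, 107 and 134 CPM in controls. Peritoneal control library 1 lay within the thymic range. The averaged peritoneal against thymic log2 difference was 0.78 (SE 0.19, adjusted p = 0.0330, edgeR), called in 9 of 15 fits with a library left out. It was lost without peritoneal control library 2 (0.144), either peritoneal dDC library, thymic dDC library 1, or thymic control library 1 or 3.

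Sqle, the squalene epoxidase and an oxygen-dependent control point of the chain, had the largest log2 difference of the members between thymic and splenic Tregs. It had 30.1 and 37.4 CPM in peritoneal dDC, 21.9 and 11.6 CPM in peritoneal control, 0.822 and 7.31 CPM in thymic dDC, and 2.90, 1.36 and 14.0 CPM in thymic control libraries, with 26.4, 20.7 and 26.7 CPM in splenic dDC and 34.1, 30.2 and 30.9 CPM in splenic control libraries. Thymic libraries were all below splenic ones and overlapped with peritoneal ones. The averaged log2 differences did not pass the test: 2.25 (SE 0.67, adjusted p = 0.0810, edgeR) for peritoneal against thymic and -2.49 (SE 0.64, adjusted p = 0.0971, edgeR) for thymic against splenic Tregs. The thymic against splenic difference was called without the filter on low counts (adjusted p = 0.0290), by DESeq2 (0.00064), by limma-voom (0.0171), and by edgeR without thymic dDC library 2 (0.0444) or thymic control library 3 (0.0179). The peritoneal against thymic one was called under the same 5 alternatives (0.0325, 0.00484, 0.0120, 0.0274 and 0.0116 in that order).

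Over the 18 sterol enzymes, summed levels were 924 to 967 CPM in peritoneal dDC, 640.0 to 819 CPM in peritoneal control, 436 to 561 CPM in thymic dDC and 493 to 529 CPM in thymic control libraries, against 656 to 745 CPM in splenic dDC and 745 to 913 CPM in splenic control libraries. The 5 thymic sums were below the 10 others. In the averaged peritoneal against thymic comparison 13 of the 18 enzymes had a positive and 5 a negative log2 difference, with a median of 0.80. The 11 enzymes from squalene to cholesterol had 9 positive and 2 negative values and a median of 0.82. In the averaged thymic against splenic comparison, 17 of 18 enzymes and 11 of 11 late ones were negative, with medians of -0.60 and -0.61, and of all genes 47.3% were positive. Without thymic dDC library 1 these last counts were 16 of 18 and 10 of 11, with medians of -0.56 and -0.43. The lowest mean over sites fell in the thymus for 23 of the 36 members and for 9 of the 11 late enzymes, a count that was not made over all genes.

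The remaining enzymes of the chain were not called in any comparison by edgeR with all 15 libraries. Among those of the mevalonate pathway, the kinase gene Pmvk lay between 11.2 and 27.7 RPKM over the 15 libraries and the decarboxylase gene Mvd between 2.37 and 28.2 RPKM. Idi1, the isopentenyl diphosphate isomerase, lay between 0.213 and 1.47 RPKM, and Fdps, the farnesyl diphosphate synthase, between 0.408 and 2.70 RPKM. Among the late ones, Cyp51, the lanosterol demethylase, lay between 0.719 and 21.0 RPKM, Nsdhl between 3.62 and 18.9 RPKM, and Dhcr7, a reductase at the end of the chain, between 6.51 and 25.7 RPKM. DESeq2 called Cyp51 (log2 difference 1.52, adjusted p = 0.0208) and Sc5d (0.82, 0.0235) higher in the averaged peritoneal against thymic comparison. There edgeR called Cyp51 without thymic control library 2 (adjusted p = 0.0452). In the averaged thymic against splenic comparison DESeq2 called Cyp51 (-1.34, adjusted p = 0.0438), Lss (-1.70, 0.0429) and Fdft1 (-0.77, 0.00950) lower. For peritoneal against thymic Tregs it called Idi1 higher in controls (1.95, adjusted p = 0.0248) and Fdft1 in dDC mice (1.45, 0.00136).

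Thymic dDC library 1 had single sterol enzymes near 0. Of the 34 members with a mean of at least 5 CPM, Hsd17b7, Lss, Mvk, Sqle and Tm7sf2 were under 1 CPM in that library, as were 4.02% of the 10628 genes with such a mean. In thymic control library 1, Hsd17b7 (0.109 CPM) and Mvk (0.328 CPM) were under 1 CPM, as were 2.55% of those genes. Elsewhere Hsd17b7 was under 1 CPM in splenic dDC library 2 (0.898 CPM) and Fads1 in splenic dDC library 3 (0.194 CPM). Lss, the cyclase that closes the sterol rings, had 0.329 and 11.4 CPM in the thymic dDC libraries. Mvk, mevalonate kinase, had 0.110 and 15.7 CPM in the same libraries.

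Of the 7 fatty acid genes, 5 had their highest mean over sites in the peritoneal cavity and 5 their lowest in the thymus, with Scd2 the other way round. Neither count was made over all genes. Scd2 had 42.5 and 66.6 CPM in peritoneal dDC, 38.4 and 6.40 CPM in peritoneal control, 157 and 146 CPM in thymic dDC, and 133, 204 and 241 CPM in thymic control libraries. Splenic libraries had 41.6, 103 and 93.6 CPM in dDC and 66.9, 89.5 and 100.3 CPM in controls. Each thymic library was above each library of the other sites, and peritoneal and splenic ones overlapped. Scd2 fell by 2.29 on the log2 scale (SE 0.46, adjusted p = 0.0119, edgeR) in peritoneal against thymic Tregs, a call lost without peritoneal dDC library 1 (adjusted p = 0.0643). Its transcript shares a 95.6% identical stretch of 620 bases with a paralogue, so reads could have been split between the genes.

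Fasn, the synthase that builds palmitate, had 83.8 and 74.1 CPM in peritoneal dDC, 82.6 and 81 CPM in peritoneal control, 66.1 and 36.6 CPM in thymic dDC, and 47.6, 47.0 and 85.0 CPM in thymic control libraries. Splenic libraries had 98.9, 81.3 and 82.7 CPM in dDC and 55.1, 51.0 and 63.3 CPM in controls. All 3 sites overlapped, and the averaged peritoneal against thymic log2 difference of 0.54 did not pass the test (SE 0.21, adjusted p = 0.203, edgeR). Without thymic control library 3 it did (adjusted p = 0.0490). Acly lay between 196 and 426 CPM and Fads1, a desaturase of polyunsaturated fatty acids, between 0.0562 and 7.13 RPKM, and edgeR called neither. DESeq2 called Acly higher in peritoneal than in thymic dDC Tregs (0.80, adjusted p = 0.0113). Elovl6, which extends palmitate to stearate, had averaged log2 differences of 1.56 (SE 0.56, adjusted p = 0.148, edgeR) for peritoneal against thymic and 1.24 (SE 0.52, adjusted p = 0.298, edgeR) for peritoneal against splenic Tregs. The first was called by edgeR without thymic dDC library 1 (adjusted p = 0.0488), by DESeq2 (0.0378) and by limma-voom (0.0468).

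**Figure D3:**
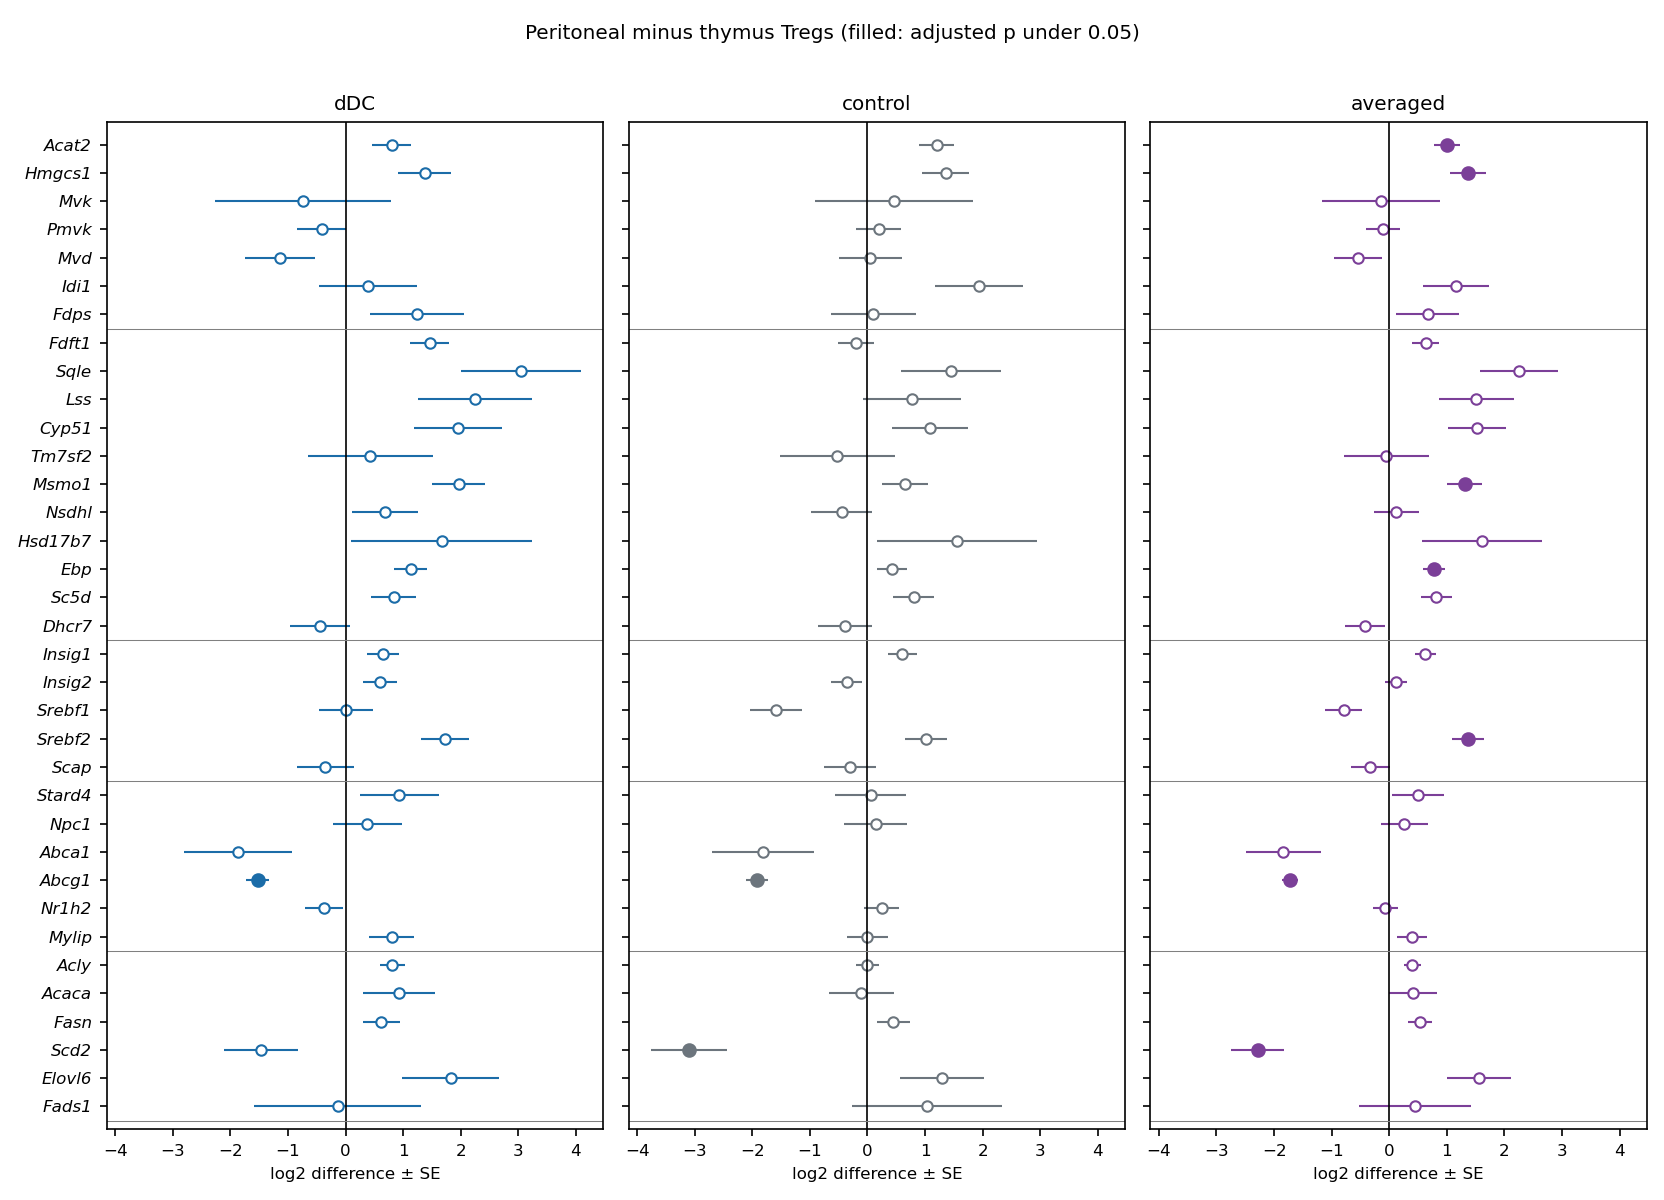
Log2 difference (horizontal axis), peritoneal minus thymic Tregs, of 35 members in dDC mice, in controls and averaged over both, with bars of 1 SE; filled points have an adjusted p under 0.05, and Fads2 is left out. Abcg1 is filled in all 3 panels, Scd2 in the control and averaged ones, and Srebf2, Hmgcs1, Msmo1, Acat2 and Ebp in the averaged one.

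Within controls, 2 of 36 members were called for peritoneal against thymic Tregs (2.47% of all genes): Abcg1 fell by 1.92 (SE 0.19, adjusted p = 0.000337, edgeR) and Scd2 by 3.10 on the log2 scale (SE 0.66, adjusted p = 0.0304, edgeR). Scd2 was at 0.100 without peritoneal control library 2, whose 6.40 CPM was its lowest value, and was also lost without thymic control library 2 or 3. Next by p, not called, stood Acat2 (log2 difference 1.2, SE 0.31, adjusted p = 0.0694, edgeR) and Srebf1 (-1.59, SE 0.45, adjusted p = 0.102, edgeR). Within dDC mice 1 of 36 was called (1.35% of all genes): Abcg1 fell by 1.53 (SE 0.20, adjusted p = 0.00288, edgeR). Next stood Msmo1 (1.97, SE 0.46, adjusted p = 0.0655), Fdft1, the squalene synthase (1.46, SE 0.35, adjusted p = 0.0703), and Srebf2 (1.73, SE 0.41, adjusted p = 0.0732, all edgeR).

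The dDC and control libraries are separate, so the difference between sites could be read in each. For peritoneal against thymic Tregs, 22 of 36 members (61.1%) had the same sign in both genotypes, beside 59.7% of all genes. For peritoneal against splenic Tregs it was 52.8% of members and 59.0% of all genes, and for thymic against splenic Tregs 63.9% and 57.6%. Libraries of the 2 sites did not overlap over both genotypes for 6 of 36 members in the peritoneal against thymic comparison (8.38% of all genes), with Srebf2, Hmgcs1 and Msmo1 higher and Abcg1, Scd2 and Abca1 lower.

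Against the spleen, fewer members were called. Within controls, thymic Tregs had 1 of 36 (0.603% of all genes): Abcg1 rose by 1.2 (SE 0.16, adjusted p = 0.00563, edgeR). Next stood Acat2 (-1.2, SE 0.28, adjusted p = 0.105), Srebf2 (-0.97, SE 0.33, adjusted p = 0.326) and Sqle (-2.38, SE 0.82, adjusted p = 0.336, all edgeR). Within dDC mice, thymic Tregs had 0 of 36 (0.179% of all genes), with 1 member higher and 8 lower at an unadjusted p under 0.05 in edgeR (7.75% of all genes) and 3 members called by DESeq2. The 4 lowest p values were those of Abcg1 (0.76, SE 0.18, adjusted p = 0.182), Msmo1 (-1.82, SE 0.43, adjusted p = 0.183), Srebf2 (-1.48, SE 0.39, adjusted p = 0.275) and Sqle (-2.59, SE 0.98, adjusted p = 0.589, all edgeR). Averaged over genotypes, 3 of 36 were called for thymic against splenic Tregs (1.32% of all genes), the Abcg1, Msmo1 and Srebf2 given above.

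Peritoneal against splenic Tregs gave 0 of 36 within controls (0.792% of all genes), with 0 members higher and 3 lower at an unadjusted p under 0.05 (10.6% of all genes) and 2 called by DESeq2. The lowest p values were those of Abcg1 (-0.72, SE 0.19, adjusted p = 0.127), Scd2 (-1.93, SE 0.62, adjusted p = 0.256), Fdft1 (-0.90, SE 0.32, adjusted p = 0.314) and Elovl6 (1.57, SE 0.73, adjusted p = 0.481, all edgeR). Within dDC mice it gave 0 of 36 (0.906% of all genes), with 3 higher and 2 lower at an unadjusted p under 0.05 (8.64% of all genes) and 1 called by DESeq2. Abcg1 (-0.76, SE 0.18, adjusted p = 0.106), Sc5d, a sterol desaturase (1.10, SE 0.35, adjusted p = 0.281), Ebp (0.73, SE 0.25, adjusted p = 0.356) and Acat2 (0.82, SE 0.31, adjusted p = 0.410, all edgeR) came first. Averaged over genotypes, Abcg1 was the 1 member of 36 called (2.89% of all genes), followed by Scd2 (-1.23, SE 0.42, adjusted p = 0.192), Ebp (0.46, SE 0.18, adjusted p = 0.266) and Mvd (-1.0, SE 0.40, adjusted p = 0.274, all edgeR).

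The other question of the design was whether these genes differ between dDC and control Tregs. No member was called at any site: 0 of 36 in the peritoneal cavity (0.00543% of all genes), 0 of 36 in the thymus (0% of all genes), 0 of 36 in the spleen (0% of all genes) and 0 of 36 for the average of the 3 sites (0.076% of all genes). With an unadjusted p under 0.05 in edgeR, 4 members were higher and 0 lower in the peritoneal cavity (6.36% of all genes), 1 and 3 in the thymus (6.57%), 2 and 2 in the spleen (4.27%), and 1 and 3 for the average (9.31%). DESeq2 called 0 members in the peritoneal cavity (226 of all genes), 1 in the thymus (Acat2, higher; 187 of all genes), 0 in the spleen (48 of all genes) and 2 for the average (Acat2, higher, and Acaca, lower; 428 of all genes). The members' median log2 difference was 0.20 in the peritoneal cavity, -0.20 in the thymus, -0.18 in the spleen and -0.10 for the average, beside medians of 0.00, -0.03, -0.01 and -0.02 over all genes.

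The signs of the late sterol enzymes differed between sites, but no member had a called difference between sites in its dDC effect. The 11 enzymes from squalene to cholesterol had 9 positive log2 differences in the peritoneal cavity (median 0.57), 4 in the thymus (median -0.56) and 0 in the spleen (median -0.37). Without thymic dDC library 1 the thymus had 6 positive and a median of 0.00. Without peritoneal control library 2, the one with the high macrophage marker sum, the peritoneal cavity had 9 positive and a median of 0.42. The 9 B cell markers had a median log2 difference between dDC and control of 0.13 in the peritoneal cavity, -1.04 in the thymus and -0.35 in the spleen. The 12 proliferation markers had medians of 0.64 in the peritoneal cavity, -0.23 in the thymus and 0.18 in the spleen. The part of either in these values was not tested. Groups did not overlap for 13 members higher and 4 lower in the peritoneal cavity (18.7% and 15.4% of all genes), 1 and 6 in the thymus (9.06% and 10.3%), and 2 and 5 in the spleen (4.94% and 5.19%).

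Acat2 had the lowest p in the thymus, where 44.6 and 55.6 CPM in dDC libraries stood above 23.2, 18.5 and 18.5 CPM in controls, a log2 difference of 1.32 (SE 0.31, adjusted p = 0.561, edgeR). In the peritoneal cavity it was 0.92 (SE 0.34, adjusted p = 0.705, edgeR), and for the average of the sites 0.78 (SE 0.18, adjusted p = 0.189, edgeR). Splenic values of Acat2 overlapped. Without peritoneal control library 1, which leaves 1 peritoneal control, Acat2 passed the test both in the peritoneal cavity (log2 difference 1.73, adjusted p = 0.0272, edgeR) and for the average (1.05, adjusted p = 0.0123, edgeR), and Scd2 was called higher in the peritoneal cavity (3.09, adjusted p = 0.0482, edgeR). Msmo1 (-1.29, SE 0.42), Fdft1 (-0.86, SE 0.32) and Srebf1 (-1.16, SE 0.44) followed in the thymus, each with an adjusted p of 0.748 (edgeR) and with groups that did not overlap. Without thymic dDC library 2, which leaves as the thymic dDC sample the library with several enzymes near 0, Lss (adjusted p = 0.0275) and Tm7sf2 (adjusted p = 0.0449, both edgeR) were called lower in the thymus. Acly (0.62, SE 0.22, adjusted p = 0.650), Fdft1 (0.79, SE 0.34, adjusted p = 0.763) and Insig2 (0.65, SE 0.29, adjusted p = 0.776, all edgeR) stood beside Acat2 in the peritoneal cavity.

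In the spleen, Acaca had 2.2, 6.83 and 5.44 CPM in dDC and 15.1, 20.4 and 10.8 CPM in control libraries, a log2 difference of -1.68 (SE 0.52, adjusted p = 1, edgeR). Fasn, the next enzyme after Acaca in the chain, went the other way, with a log2 difference of 0.63 (SE 0.26) and 3 dDC libraries above the 3 controls. Fdft1 differed by -0.73 (SE 0.28) and Insig2 by 0.57 (SE 0.24), all with an adjusted p of 1 (edgeR). For the average of the sites, Acaca (-1.02, SE 0.33, adjusted p = 0.360), Msmo1 (-0.57, SE 0.23, adjusted p = 0.486) and Insig1 (-0.33, SE 0.14, adjusted p = 0.512, all edgeR) followed Acat2.

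Fdft1 had 46.8 and 68.6 CPM in peritoneal dDC and 31.9 and 34.8 CPM in peritoneal control libraries, 15.5 and 26.5 CPM in thymic dDC and 28.8, 44.8 and 40.7 CPM in thymic control libraries, and 26.7, 42.5 and 43.5 CPM in splenic dDC and 57.7, 56.7 and 72.2 CPM in splenic control libraries. The dDC libraries were above the controls in the peritoneal cavity and below them at the other sites. The difference between the dDC effects was 1.65 for peritoneal minus thymic (SE 0.47, adjusted p = 0.840, edgeR) and 1.52 for peritoneal minus splenic Tregs (SE 0.44, adjusted p = 0.998, edgeR), so it did not pass the test. Exons of Ctsb on the opposite strand cover 26.8% of the Fdft1 exons, and Ctsb held 182625 reads against 12201 for Fdft1. The library chemistry does not mark strand, so reads of the shared part cannot be told apart. The near-identical copy Gm6781 (97.4% identity over 1249 bases) held 2585 reads, and the counting could have split reads between it and Fdft1. No member had a called difference between sites in its dDC effect (0% of all genes in each of the 3 tests), with 4 members at an unadjusted p under 0.05 for peritoneal minus thymic (5.72% of all genes), 2 for peritoneal minus splenic (4.89%) and 3 for thymic minus splenic Tregs (5.06%).

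**Figure D4:**
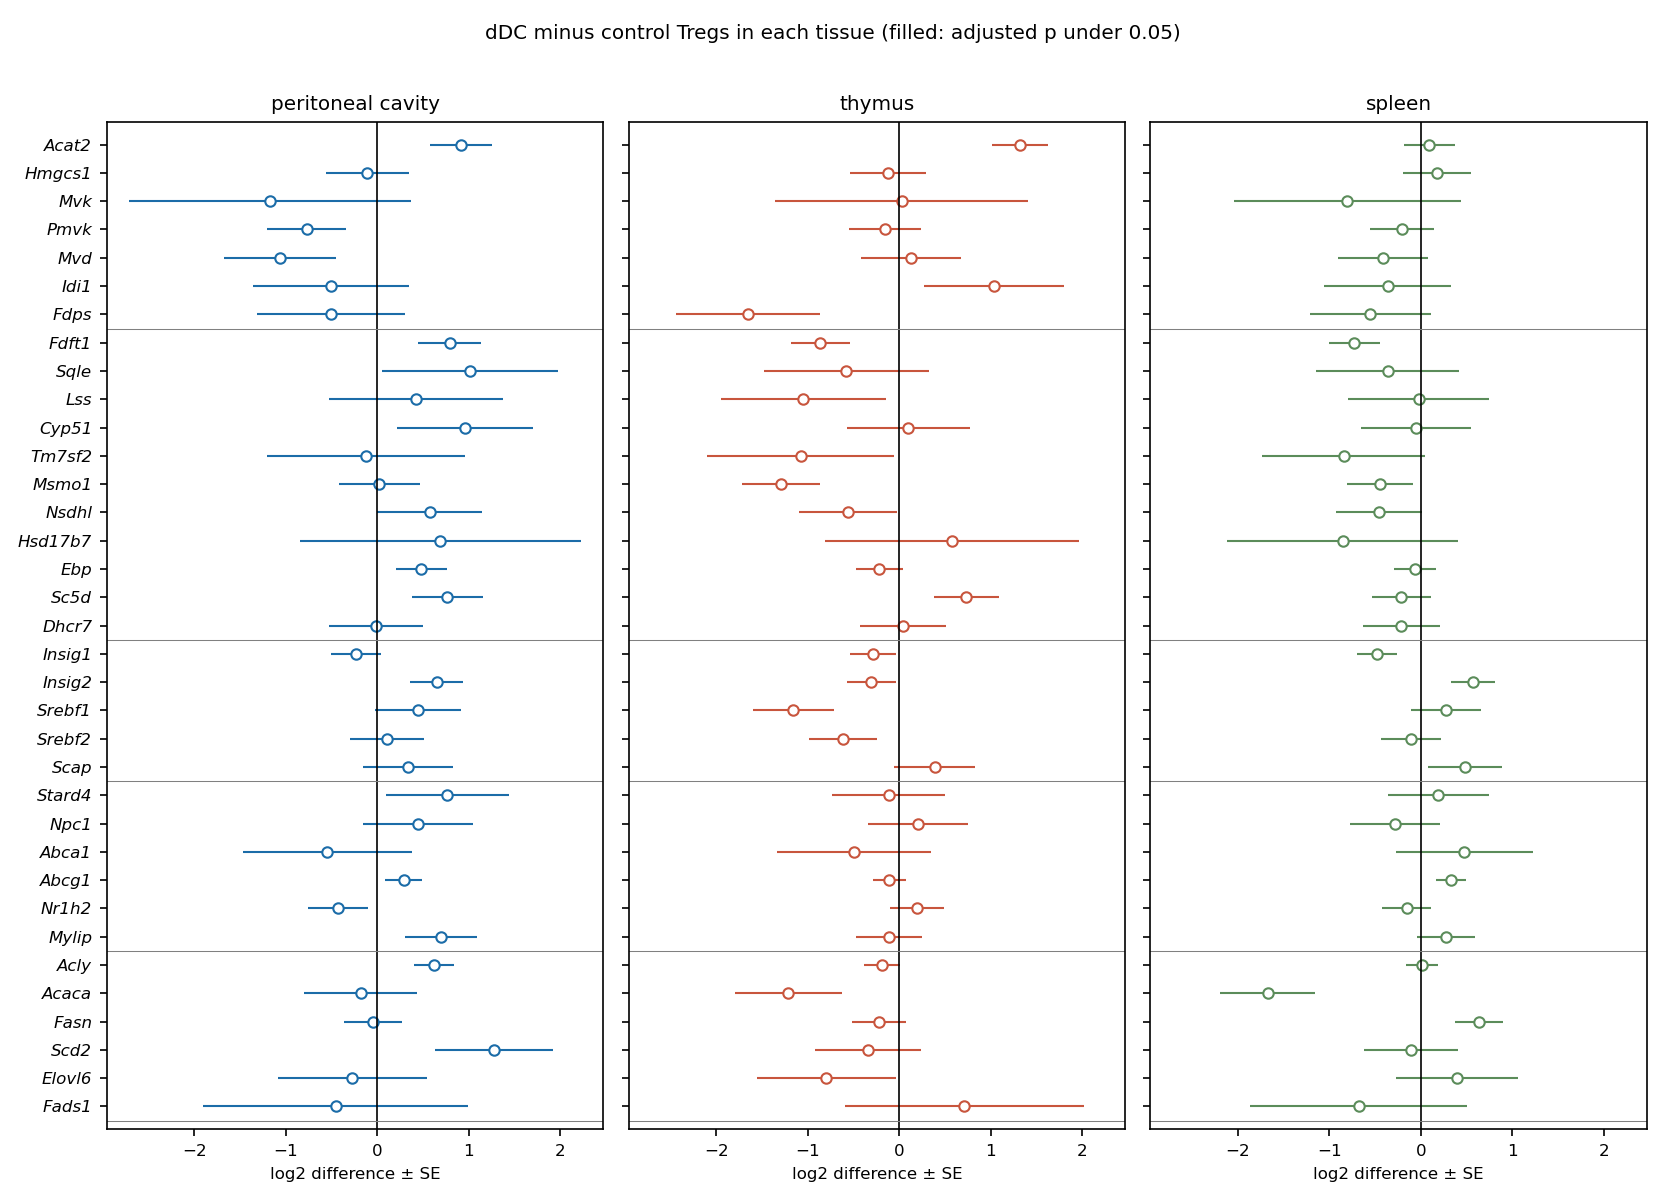
Log2 difference (horizontal axis), dDC minus control, of 35 members at each site, with bars of 1 SE and Fads2 left out; no point has an adjusted p under 0.05. The late sterol enzymes lie mostly right of 0 in the peritoneal cavity and left of 0 in the spleen.

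Beyond the 36 genes, 24 of 26 other lipid synthesis genes of a separate list were tested. Elovl5, which extends polyunsaturated fatty acids, had 498 and 381 CPM in peritoneal dDC, 271 and 272 CPM in peritoneal control, 248 and 246 CPM in thymic dDC, and 199.8, 192 and 225 CPM in thymic control libraries. Splenic libraries had 218, 228 and 248 CPM in dDC and 269, 228 and 254 CPM in controls. Each peritoneal library was above each library of the other sites. Averaged over genotypes Elovl5 rose by 0.62 on the log2 scale (SE 0.10, adjusted p = 0.00261, edgeR) in peritoneal against thymic and by 0.52 (SE 0.09, adjusted p = 0.00815, edgeR) in peritoneal against splenic Tregs. Within dDC mice it rose by 0.83 (SE 0.14, adjusted p = 0.0132, edgeR) and 0.93 (SE 0.13, adjusted p = 0.00494, edgeR). Acsl5, an acyl-CoA synthetase, rose by 0.82 (SE 0.22, adjusted p = 0.0476, edgeR) in the averaged peritoneal against thymic comparison. No gene of this list was called between dDC and control at any site.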

How the data were processed

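The authors deposited raw counts of reads per Ensembl gene for 15 libraries. Per the submitters' processing notes, bcl2fastq 2.19.1, GSNAP and featureCounts 1.6.0 were used with mm10. Per the labels' protocols, cDNA was primed on poly-A, amplified for 12 cycles and made into libraries without strand marks, amplified for 15 cycles. The sources used here give neither the strand setting nor the treatment of reads with several matches. Reads carry no molecular identifiers, so depth bounds counting error only.

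Of 45706 identifiers, 45143 matched a symbol, and each of the 36 members matched 1. The 92 spike-ins were left out. edgeR 4.0.16 (R 4.3.3) kept 18423 genes (filterByExpr over 6 groups), scaled them by TMM and fitted all 15 libraries together by robust quasi-likelihood with 9 residual degrees of freedom. P-values were adjusted by Benjamini-Hochberg over all genes, with a threshold of 0.05. SE is the size of the log2 difference divided by the square root of its quasi-likelihood F statistic. CPM use TMM-scaled library sizes, and RPKM add the exon length. There were 10 planned comparisons, 3 averaged over genotypes that were added after the data were seen, and 3 differences of dDC effects. Alternatives were DESeq2 1.42.0, limma 3.58.1, DESeq2 size factors, no filter, fits of the compared libraries only, a block on neighbouring library numbers, and each library left out. Copies were sought with minimap2 2.31-r1302 (at least 95% identity over 200 bases).

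Members and lists were chosen with earlier results of these data known. The text names every called member, the 4 of lowest p where fewer than 4 were called, and Srebf1, Srebf2, Insig1, Hmgcs1, Sqle, Abca1, Abcg1 and Fasn always. Per-library values are given for these and for others singled out after their values were seen. Promoters printed are, of the 28 members searched, those of the 4 with lowest adjusted p and a match, over the 10 planned comparisons, plus Hmgcs1.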

Additional observations from a re-analysis of the deposited data

Results flagged for a closer look

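The 92 spike-in sequences of the count table, used in no comparison, were read in most libraries, with at most 6 reads in a library and more than 3, the limit that a count of 0 allows, in 5 of 15 libraries. Groups of 2 or 3 libraries are too small for a test of single libraries that stand apart.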

How the results depend on the processing

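Of 1112 alternative values for 55 named results, 1019 kept direction and side of the threshold, 59 lost the call, 34 gained one and 0 reversed. Most of the 55 results were not called in the main fit, and the 59 losses could fall only on those that were. DESeq2 called more members than edgeR: between dDC and control 1 in the thymus and 2 for the average. For thymic against splenic Tregs it called 3 in controls, 3 in dDC mice and 7 averaged, beside 660, 464 and 1060 of all genes. For peritoneal against splenic Tregs it called 2, 1 and 2, beside 842, 647 and 1313 of all genes, and for peritoneal against thymic Tregs 6, 7 and 13, beside 1502, 1079 and 2148. Without the filter, peritoneal against thymic dDC Tregs gave 3 (315 of all genes). With only the compared libraries, peritoneal against thymic Tregs gave 1 in controls, 0 in dDC mice and 3 averaged, beside 73, 0 and 585 of all genes, and thymic against splenic Tregs 1 averaged, beside 246. Fewer libraries then enter the fit. There Scd2 reached an adjusted p of 0.199 in controls (log2 difference -3.09) and 0.050 averaged (-2.29), and Abcg1 0.107 in dDC mice (-1.54), where no gene at all passed.

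With each library left out in turn, dDC against control gave 0 to 2 members in the peritoneal cavity (0 to 146 of all genes), 0 to 2 in the thymus (0 to 52), 0 in the spleen (0) and 0 to 1 for the average (5 to 110). Thymic against splenic Tregs gave 1 to 2 in controls (50 to 120 of all genes), 0 to 1 in dDC mice (4 to 81) and 1 to 6 averaged (112 to 302). Peritoneal against splenic Tregs gave 0 to 1 (38 to 326), 0 (41 to 173) and 0 to 2 (274 to 681), and peritoneal against thymic Tregs 1 to 3 (175 to 657), 1 to 6 (86 to 319) and 3 to 8 (614 to 1209). A group left with 1 library is then assumed to vary like the others. Differences of dDC effects gave 0 members throughout (up to 72 of all genes). The cause of these shifts was not tested. The averaged comparisons and their alternatives were chosen after seeing the data.

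Whether neighbouring library numbers mark paired samples was not settled. Their deviations from group means correlated by -0.005 to 0.102 over the tested genes, which cannot exclude pairing. In the peritoneal cavity, with 2 libraries per group, both pairs must give the same value (0.102). Of all library pairs, peritoneal dDC library 1 and peritoneal control library 1, neighbours in number, were the most alike (correlation of log2 CPM 0.931). With neighbouring numbers as a replicate block (4 residual degrees of freedom), 0 members were called between dDC and control at any site. No gene at all passed there (0 of all genes), so this fit says nothing particular of the members.

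Depth limits the low members most: Fads2, with 36 reads, and Idi1, with 748, carry little information. Fdps (1593 reads) and Idi1 have near-identical copies that held 5004 (Gm3571, 98.9% identity) and 948 reads (Gm13502, 100%), so their levels are uncertain.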
